A study of Homo sapiens with 21 samples.

Results

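The regions described here are 795 strong RUNX1 binding sites that were called in every HA and TY1 peak list of the study. They were found by setting a window of 100 bp on each side of the summit of every peak on chromosomes 1 to 22 and X, merging overlapping windows of all 14 lists into regions, and keeping the regions that held a summit in all 14 lists and reached a fold enrichment of 10 or more in each of them. Merging gave 190855 regions, 11291 of them had a summit in all 14 lists and are called shared regions, and the 795 members made up 7.04% of the shared regions. Fold enrichment is the peak caller's linear ratio of signal over local background at the summit. Since this ratio chose the members, all folds and ranks of folds are given as a description without a test, and only peak width and summit position were tested.

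The cells were Jurkat, an established human T-cell acute lymphoblastic leukaemia line, untreated, and each genotype consisted of single clones in which RUNX1 carried an epitope tag. The R232fs, Y287X and G365R knock-in genotypes had 2 clones each, with HA on the mutant protein and TY1 on the wild-type protein of the same cells. The WT genotype was 1 clone of the parental line, in which HA and TY1 both marked wild-type RUNX1. Each clone gave 1 HA and 1 TY1 list, and 7 further control samples of the 21 in the series were not analysed here. Cells were fixed for 15 min and the fixation was stopped for 5 min. With 2 clones a genotype and 1 for WT, every difference between genotypes is also a difference between a few clones.

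RUNX1 is a transcription factor that binds DNA through its Runt domain, together with its partner CBFB, and is required for blood stem cell formation and T-cell development. The 3 changes lie after the Runt domain: R232fs is a frameshift and Y287X a stop codon, both of which cut off the C-terminal transactivation region, while G365R exchanges a single amino acid within it. In ChIP-seq a summit marks the base where most fragments overlap, and peak width reflects how far around it the signal stays above background. No annotation or sequence of the files' build, hg19, was used here, so the regions are named by position, counted from 1.

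The lists were of different kinds. At the members the highest summit pileup, solved from the deposited fold and p-value, was 1146 to 3003 in the 8 R232fs and Y287X lists and 381 to 472 in the 6 G365R and WT lists, so that this set of genotypes and this kind of list cannot be told apart. In the first G365R TY1 and the WT TY1 list 9.69% and 8.05% of the solved pileups at members were within 0.05 of a whole number, beside nearly all in the other lists, so pileups and backgrounds of these 2 lists are on a scaled basis. Lists held 30563 to 86433 peaks. The median background at the members ran from 2.83 to 6.92, the latter in the WT TY1 list on its scaled basis. In the R232fs and Y287X lists other than the second Y287X TY1 list, this median was also the lowest background at any member. In these lists 456 to 559 members had that lowest value. The lists of the second R232fs clone and the second Y287X clone stood apart from the others in summit position. In rank of fold this held for R232fs and only in part for Y287X, as described further on. Folds and widths of different lists are set side by side as deposited, and counts of members whose lists differ in strength are also given as ranks within a list. A percentile is the rank of a region's fold among the 11291 shared regions of one list, with 100 for the highest.

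Which list brought a region nearest to the threshold was uneven. The lowest of the 14 folds lay in an HA list for 679 members (85.4%) and in a TY1 list for 116 (14.6%). It lay in the HA list of the first G365R clone for 215 (27.0%), more than in any other list. Over the shared regions, too, the TY1 fold of a clone was the higher at 61.0% to 95.6%. The rule used these folds, so the shares are not read as a trait of the members. Just inside the threshold were chr12:76414106-76414367, with a lowest fold of 10.019 in the WT HA list, and chr11:70211350-70211579 and chr6:22143249-22143501, with 10.026 and 10.038 in the first G365R HA list. Just outside it were chr10:12630490-12630746, at 9.998 in the first G365R HA list, and chr17:63429633-63430053 and chr2:64899784-64900103, both at 9.996 in the second Y287X HA list. The last of these had folds of 10.4 to 15.2 in the other 7 R232fs and Y287X lists and of 14.5 to 27.3 in the G365R and WT lists.

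Fold at the members was higher under TY1 than under HA in every genotype. In R232fs the HA lists had a median fold of 23.3 ± 0.417 and the TY1 lists of 35.1 ± 0.303 (SD over lists, n = 2 each). Y287X had 26.4 ± 5.42 under HA and 38.1 ± 10.2 under TY1, and G365R 18.1 ± 1.08 under HA and 25.9 ± 1.34 under TY1. In the single WT clone, with the same protein under both tags, it was 18.3 for HA and 22.9 for TY1. The medians of HA and TY1 lists did not overlap within any of these genotypes, although in Y287X the second HA list, at 30.2, nearly reached the first TY1 list, at 30.9. The median ratio of HA to TY1 fold within a clone was 0.689 and 0.675 in R232fs, 0.750 and 0.697 in Y287X, 0.696 and 0.792 in G365R and 0.845 in WT. TY1 had the higher fold in 626 (78.7%, WT) to 757 (95.2%, second Y287X clone) of the 795 members. Over the shared regions TY1 was higher at 61.0% (first R232fs clone) to 95.6% (first G365R clone), and at 91.7% in WT. It was higher in all 7 clones at 433 members (54.5%), beside 41.2% of the shared regions, and HA was higher in all 7 clones at 1 member (0.126%), beside 0.0620%. The rule used these folds, so nothing is read from the difference between the shares.

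**Figure D1:**
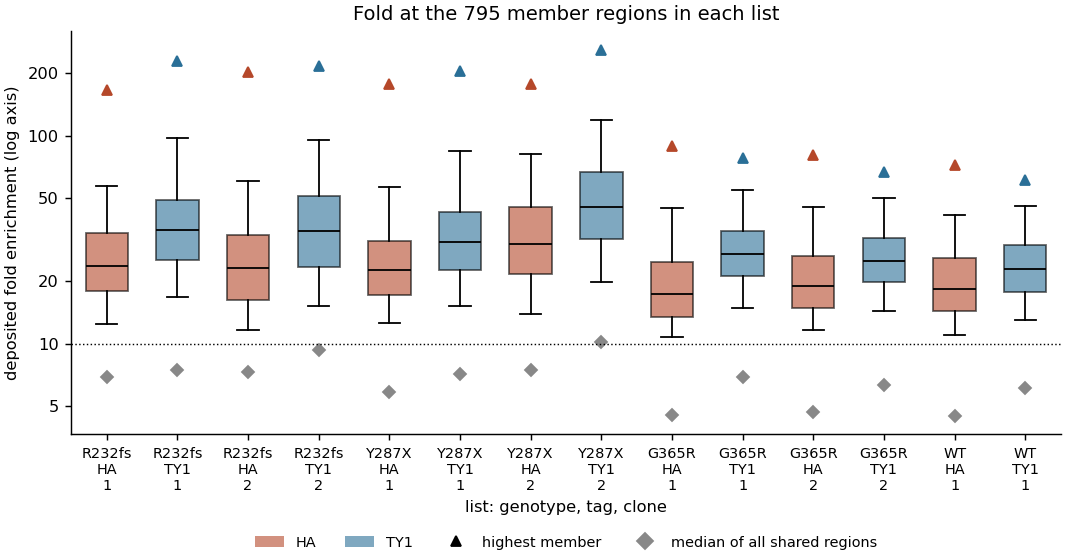
Deposited fold enrichment (log axis) at the 795 members in each of the 14 lists, with boxes from the lower to the upper quartile, a line at the median, whiskers at the 5th and 95th percentile, the highest member as a triangle and the median of the 11291 shared regions as a diamond. The dotted line is the threshold of 10. Member medians run from 17.3 in the first G365R HA list to 45.4 in the second Y287X TY1 list, and highest members are lower in the 6 G365R and WT lists.

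By rank the members lay at a similar height in every list. Their median percentile ran from 94.1 to 95.5 over the 14 lists. A high value in every list follows in part from the rule. The threshold on fold reached further down the ranks of some lists than of others. The lowest member stood at percentile 85.5 in the first G365R HA list but at 50.1 in the second Y287X TY1 list, where 5739 shared regions (50.8%) had a fold of 10 or more. Of all regions with a fold of 10 or more in a list, members made up 9.94% in the second Y287X TY1 list and 31.7% in the first G365R HA list. Between 60 and 93 members stood among the top 100 regions of a list by fold, counted over all its regions, shared or not.

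The member of highest median rank, chr10:1295988-1296256, had higher deposited folds in R232fs and Y287X lists than in G365R and WT lists. Its fold was 165 and 203 for HA and 144 and 215.5 for TY1 in R232fs. In Y287X it was 177 and 153 for HA and 187 and 151 for TY1. In G365R it was 69.7 and 76.5 for HA and 56.1 and 52.3 for TY1, and in WT 35.3 for HA and 31.0 for TY1. The 2 sets of lists did not overlap in fold, but in rank the region was at or above percentile 97.9 in every list.

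A further 4 regions followed it by median percentile. At chr10:125532440-125532768 the fold was 93.4 to 167 in the R232fs and Y287X lists and 54.6 to 80.3 in the G365R and WT lists, and this region was the highest member of the WT HA and the second G365R HA list. At chr11:36706501-36706771 the fold was 61.8 to 119 under HA and 125 to 219 under TY1 in R232fs and Y287X, so that the tags did not overlap there, while in G365R and WT it was 43.4 to 89.3 under HA and 36.2 to 78.4 under TY1. The region chr10:96059310-96059560 was the steadiest of these in rank, between percentile 99.7 and 99.96, with folds of 51.5 to 190. At chr11:85463987-85464241 the HA folds of R232fs and Y287X were 33.9 to 65.1 and the TY1 folds 113 to 166, whereas in G365R and WT both tags lay between 53.8 and 66.1.

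The HA list thus stood far below the TY1 list of the same clone at some members of the truncating genotypes. A like order was present at chr6:2038434-2038651, with HA folds of 30.9 to 63.2 and TY1 folds of 104 to 141 in R232fs and Y287X, and 50.8 to 61.7 over both tags in G365R and WT. At the isolated region chrX:93998499-93998798 the HA folds of R232fs and Y287X were 12.8 to 19.7 and the TY1 folds 35.1 to 50.3. In G365R and WT the HA folds there, 24.9 to 27.0, also lay below the TY1 folds, 29.8 to 31.9, by less. At chr22:29351863-29352080 the HA folds were 45.8 to 126 and the TY1 folds 136 to 260, whereas in G365R and WT the HA folds were 20.9 to 35.5 and the TY1 folds 19.0 to 25.9. This region was the highest member of the TY1 lists of the first R232fs and the second Y287X clone. The highest member fold of a list was 61.0 to 89.3 in G365R and WT, beside 165 to 260 in R232fs and Y287X. Whether this lower top narrowed the gap between the tags in G365R and WT was not tested. The set of genotypes and the kind of list cannot be told apart here either. In rank within the list, however, the 4 HA lists of R232fs and Y287X lay below the 4 TY1 lists at 40 members (5.03%, beside 4.06% of the shared regions) and above them at 51 (6.42%, beside 3.99%). In G365R and WT the 3 HA lists lay below the 3 TY1 lists in rank at 92 members (11.6%, beside 9.98%) and above them at 133 (16.7%, beside 10.5%).

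At a few members rank differed widely between lists. Members had a median range of 11.7 percentile points over the 14 lists. The widest was at chr3:135823991-135824232, from percentile 50.1 in the second Y287X TY1 list to 95.3 in the first G365R TY1 list, where fold ran from 10.2 to 26.9. At chr4:190692945-190693233 the second R232fs clone stood lowest by fold, with 14.6 under HA and 10.1 under TY1, followed by the second Y287X clone with 17.7 and 20.1. The other 10 lists had folds of 22.6 to 44.7 there. At chr18:34114053-34114342 it was the TY1 lists of the R232fs clones that were low, at 11.8 and 10.8, beside 16.9 to 37.0 in the other TY1 lists. The lowest 2 percentiles of a member came from the HA and TY1 list of 1 clone at 242 members (30.4%), beside 28.5% of the shared regions. That clone was the second R232fs clone at 88 members (11.1%, beside 9.71% of the shared regions), the WT clone at 56 (7.04%, beside 4.86%) and the second Y287X clone at 42 (5.28%, beside 3.41%). The highest 2 percentiles came from 1 clone at 191 members (24.0%, beside 29.3%). For the same clones these were 50 in the second R232fs clone (6.29%, beside 13.6%), 54 in WT (6.79%, beside 4.59%) and 33 in the second Y287X clone (4.15%, beside 4.21%).

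All 8 R232fs and Y287X lists ranked below all 6 G365R and WT lists at 68 members (8.55%, beside 4.87% of the shared regions), and above them at 49 (6.16%, beside 6.37%). The 3 members of lowest median percentile were chr7:139736124-139736435 (77.6), chr8:141282273-141282512 (80.2) and chr2:224491572-224491815 (80.9). At the chr7 region the fold was 10.5 to 15.3 in the R232fs and Y287X lists and 11.3 to 15.7 in the G365R and WT lists, ranges that overlap, while its percentiles were 61.5 to 79.1 in R232fs and Y287X and 77.3 to 91.6 in G365R and WT.

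Members were found on each of the 23 chromosomes. Chromosome 1 held the most, 92, followed by chromosomes 2 with 66, 3 with 59 and 6 with 55, and chromosomes 18 and 21 held the fewest, 11 each. Per 10 Mb of the span covered by regions there were 2.69 members, from 1.41 on chromosome 18 to 3.98 on chromosome 22. As a share of the shared regions, members were most frequent on chromosomes 4 (10.9%), 8 (9.79%), X (9.60%), 6 (9.55%) and 3 (9.25%). They were least frequent on chromosomes 19 (2.87%), 16 (3.81%) and 17 (4.16%).

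The median distance from one member to the next was 1.83 Mb, beside 83.9 kb for all shared regions, of which there are more. The longest gap was 51.0 Mb. Of the 772 distances 16 were under 10 kb and 67 under 100 kb. Joining members less than 100 kb apart gave 53 clusters with 120 members, of which 43 were pairs, 7 held 3 members and 3 held 4 or 5, and the other 675 members stood alone. The largest cluster had 5 members within 155 kb, at chr14:72906466-73061662. A pair of clusters had 4 members each, at chrX:70916765-71004480 and chr14:61804640-61919479, with lengths of 87.7 and 115 kb.

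**Figure D2:**
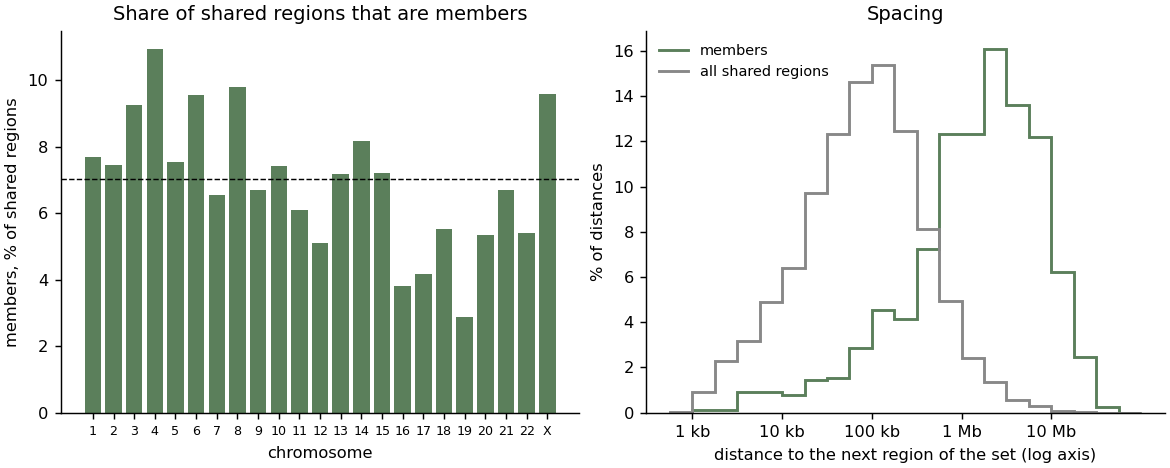
Left, members as a percentage of the shared regions of each chromosome, with the value over all chromosomes (7.04%) dashed. Right, percentage of distances between neighbouring regions of a set (log axis), for members and for all shared regions. The share is highest on chromosome 4 and lowest on chromosome 19, and member distances peak above 1 Mb with a low shoulder below 100 kb.

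The closest members lay a few kilobases apart. On chromosome 5 the regions at 138315612 to 138315906 and 138317397 to 138317671 were 1775 bp apart between their middles. The former ranked at percentile 94.6 to 98.1 in the R232fs and Y287X lists and at 87.2 to 92.3 in the G365R and WT lists, without overlap, while the ranks of the latter overlapped. A pair at 54398157 and 54400891 on the same chromosome was 2710 bp apart, and the pair at chr6:14449696-14449971 and chr6:14452850-14453152 was 3167.5 bp apart. The most isolated members were chr14:20945782-20946043, 30.4 Mb from the next member, chrX:93998499-93998798, 22.7 Mb away, and chr18:6920244-6920477, 14.8 Mb away. The isolation was from other members and not always from other regions. The chr14 region had another region of any list 1009.5 bp away, whereas the chrX region had none within 458630 bp.

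Other summits surrounded most members, counted here without regard to their fold. Another region of at least 1 list lay within 5 kb of 85.4% of the members, beside 72.2% of the other shared regions, and the median number within 5 kb was 3 beside 1. Another shared region lay within 10 kb of 21.8% of the members and 20.5% of the other shared regions. The nearest other region was at a median distance of 1.25 kb from a member and 1.86 kb from another shared region. The peak that covered a member also covered the summit of another region at 4.03% (first G365R HA list) to 17.2% (first R232fs HA list) of the members, and such peaks were wider, 1423 to 1785 bp in the median beside 761 to 919.5 bp for the rest. Over the shared regions such shares were 1.93% (second G365R HA list) to 14.4% (second Y287X TY1 list). In the second R232fs clone they were above those of the members, 10.4% beside 9.31% under HA and 9.50% beside 6.92% under TY1. Whether the members' stronger signal had a part in the number of regions around them was not tested.

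Summits of the 14 lists lay close together at the members. The distance between the outermost of the 14 summits was 73 bp in the median, with quartiles of 52 and 107 bp, beside 97 bp, with quartiles of 64 and 156 bp, at the 10496 other shared regions. It was 50 bp or less at 182 members (22.9%) and at 13.5% of the other shared regions. The part of the members' stronger signal in this closeness was not tested. At chr6:2038434-2038651 and chr22:29351863-29352080 it was 17 bp and at chr21:35778309-35778530 it was 21 bp, so that mutant and wild-type protein of all 4 genotypes had their summits within that distance there. At the other end, chr6:2542820-2543369 had a spread of 349 bp, chr1:94182350-94182896 of 346 bp and chr3:117865584-117866121 of 337 bp.

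**Figure D3:**
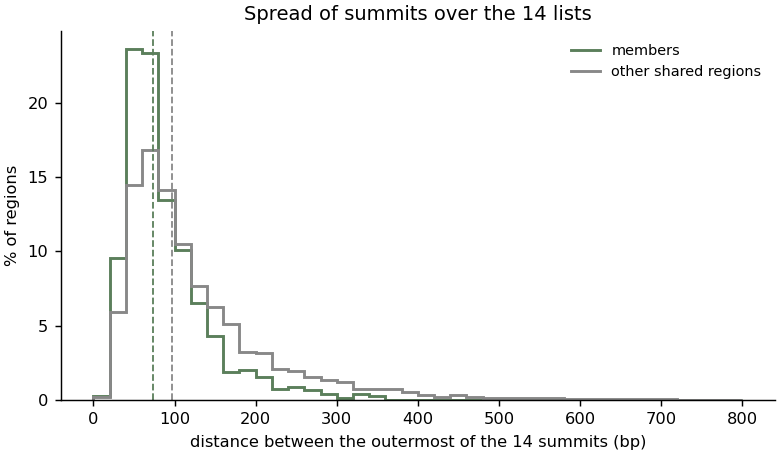
Percentage of regions by the distance between the outermost of their 14 summits (bp, bins of 20 bp), for the 795 members and the 10496 other shared regions. Dashed lines mark the medians, 73 bp for members and 97 bp for the other shared regions.

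The wide spreads were of different kinds. At chr6:2542820-2543369 the summit lay 410 to 450 bp from the region's start in 11 lists, but at 101 bp (HA) and 149 bp (TY1) in the second R232fs clone and at 296 bp in the second Y287X HA list. The same 3 lists had folds of 11.6, 14.3 and 22.1 there, beside 42.0 to 110 in the others. At chr3:117865584-117866121 the summits fell into separate positions, at 101 to 150 bp in 5 lists, at 366 to 438 bp in 8 lists and at 226 bp in the second R232fs HA list, and the split differed in direction. In the first clones of R232fs and Y287X the HA summit lay at 150 and 142 bp and the TY1 summit at 438 and 427 bp. In G365R and WT the HA summits lay at 416 to 432 bp and the TY1 summits at 101 to 112 bp.

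Across all members the summits of R232fs and Y287X followed the clone number more closely than the genotype. For each pair of clones the median summit distance over the 795 members was taken for each of the 4 combinations of their lists and averaged. Between the second R232fs clone and the second Y287X clone it was 12.25 bp (10 to 16 over the 4 pairs of lists), within the range of 10 to 17 bp between the HA and TY1 lists of a single clone. Between the 2 R232fs clones it was 29.25 bp (27 to 33), and between the 2 Y287X clones 19 bp (18 to 20). The first R232fs and first Y287X clones were 13.75 bp apart (12 to 16). The first R232fs clone was also close to the G365R and WT clones (16.5 to 17.25 bp), from which the second R232fs clone was 32.5 to 33 bp away and the second Y287X clone 28 to 28.75 bp. Over all shared regions the order was alike, with 15.5 bp between the second R232fs and Y287X clones, 18.5 bp between the first of each, 24.5 bp between the R232fs clones and 21 bp between the Y287X clones. The labels give no property that the second R232fs and second Y287X clones share apart from their number, and this pairing was singled out after its values were seen.

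**Figure D4:**
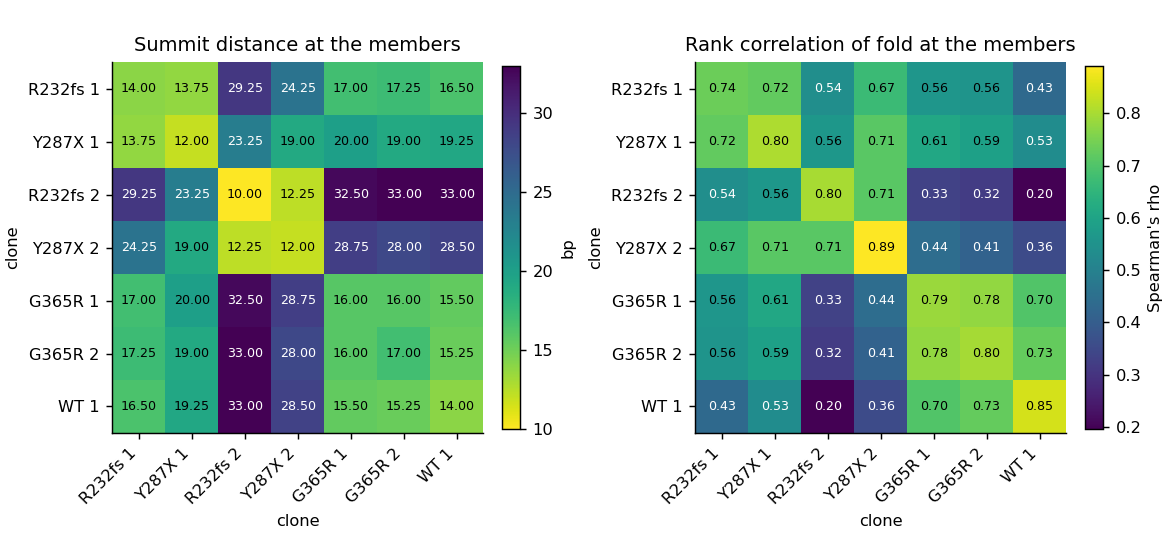
Left, mean over list pairs of the median summit distance (bp) at the 795 members for each pair of the 7 clones, with the HA to TY1 distance within the clone on the diagonal. Right, mean Spearman's rho of fold over the members for the same pairs. The second R232fs and Y287X clones are 12.25 bp apart and the 2 R232fs clones 29.25 bp, and rho is lowest, 0.20, between the second R232fs clone and WT.

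The ranks of fold showed this arrangement for R232fs and only in part for Y287X. Spearman's rho of fold over the 795 members averaged 0.71 between the second R232fs and second Y287X clones, 0.72 between the first of each, 0.54 between the 2 R232fs clones and 0.71 between the 2 Y287X clones. Over the shared regions the same values were 0.76, 0.84, 0.68 and 0.82. At the members it was 0.20 to 0.33 between the second R232fs clone and the G365R and WT clones, and 0.43 to 0.56 between the first R232fs clone and those clones. For Y287X it was also lower in the second clone, 0.36 to 0.44 with the G365R and WT clones, beside 0.53 to 0.61 in the first. Within a clone HA and TY1 folds had rho of 0.74 to 0.89. These are descriptions over regions that share libraries, with no p. The summits of the 4 lists of these second clones lay all to one side of the other 10 lists' summits at 191 members (24.0%), beside 10.9% of the shared regions. They lay towards lower coordinates at 96 and towards higher at 95. The corresponding count was 3 for the 2 R232fs clones (0.377%, beside 0.275% of the shared regions), 3 for the 2 Y287X clones (0.377%, beside 0.257%), 10 for the 2 G365R clones (1.26%, beside 1.02%) and 2 for the first R232fs and Y287X clones (0.252%, beside 0.239%). These other counts were near their background. By single clones, the second R232fs clone lay to one side of all other lists at 147 members (18.5%, beside 8.48% of the shared regions) and the other 6 clones at 8 to 33. For those clones the shares of the shared regions were 1.63% and 1.71% in the first R232fs and Y287X clones, 2.23% in the second Y287X clone, 3.49% and 3.77% in G365R and 3.76% in WT. The median of the 4 summits differed from the median of the other 10 by 20 bp or more at 438 members (55.1%), upward at 201 and downward at 237, beside 46.3% of the shared regions. The median size of this difference was 23 bp at the members and 17.5 bp at the shared regions. The part of the members' stronger signal in these larger shares and sizes was not tested.

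At chr4:164816606-164816966, the highest member of the WT TY1 list, the second R232fs clone had its summits at 256 and 261 bp from the region's start and the second Y287X clone at 215 and 198 bp, beside 101 to 141 bp in the other 10 lists. The folds there were 10.2 (HA) and 18.5 (TY1) in the second R232fs clone, 30.8 and 88.2 in the second Y287X clone, and 55.5 to 129 elsewhere. At chr2:173327655-173328088 the summits were at 101 and 127 bp and at 118 and 161 bp in these clones, and at 209 to 334 bp in the other 10 lists. Whether the position goes with the cells, the libraries or their processing was not tested.

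By tag, summits of the members lay close together. The HA and TY1 summits of a clone were 10 bp apart in the median in the second R232fs clone, 12 bp in both Y287X clones, 14 bp in the first R232fs and the WT clone, and 16 and 17 bp in the G365R clones, and 33.1% to 51.8% of the members had them within 10 bp. Over the shared regions the medians were 15 to 25 bp, and 23.7% to 39.5% of the regions had them within 10 bp. Over pairs of lists the mean of the median distance was 20.8 bp for different tags and 21.9 bp for the same tag, a difference of -1.09 bp (exact permutation of tags within clones, 1-sided for larger distance between tags, p = 0.25). The pairs of different tags include the 2 lists of each clone, and without these their mean was 22.02 bp. Over all shared regions the same test passed, at 24.69 bp for different tags and 24.98 bp for the same tag (exact permutation p = 0.0313, of a smallest possible 0.0156), and at the members of a fold of 8 or more it passed with -0.925 bp (exact permutation p = 0.0469). The value is below 0 in these, since the lists of a clone count as different tags in every arrangement. Summits of the 7 HA lists lay all to one side of the 7 TY1 lists at none of the members, beside 0.0797% of the shared regions, and those of the 4 HA lists of R232fs and Y287X to one side of the other 10 lists at 4 (0.503%, beside 0.762%).

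Summit position of HA and TY1 was also compared region by region with limma, a linear model with a pooled estimate of spread, over all 11291 shared regions (Benjamini-Hochberg adjusted p under 0.05). No member was called for R232fs and Y287X together (0.106% of the shared regions were), for G365R (0.115%) or for the difference between these contrasts (0.0531%). At an unadjusted p under 0.05 limma had 25, 18 and 24 members (3.14%, 2.26% and 3.02%), beside 5.17%, 8.09% and 6.98% of the shared regions. With clone as a term in the limma fit it was also 0 in each (0.0266%, 0.00% and 0.00% of the shared regions), with 28, 28 and 27 members at an unadjusted p under 0.05 beside 7.17%, 10.5% and 9.02% of the shared regions (3.52%, 3.52% and 3.40% of the members). Without the second Y287X clone limma called 2 members for R232fs and Y287X and 1 for the difference.

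Peaks at the members were wider than at the other shared regions, 882 beside 659 bp for the median over lists of a region, and width rose with fold (Spearman's rho over the members 0.21 to 0.45 within a list, a description). In every list pair the widths also ranked alike, with rho of 0.77 to 0.87 within a clone and 0.44 to 0.87 over all 91 pairs. Since the members were chosen by fold, the greater width is not read further.

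By tag, peak width at the members went in different directions by genotype. In R232fs the median width was 936 and 803 bp under HA and 896 and 794 bp under TY1. In Y287X it was 856 and 881 bp under HA and 886 and 966 bp under TY1. In G365R it was 777 and 819 bp under HA and 901 and 973 bp under TY1, and in WT 887 and 936 bp. The tags did not overlap in G365R or Y287X, where HA was the narrower, whereas in R232fs they did. The HA minus TY1 difference within a clone averaged 24.5 ± 21.9 bp in R232fs (SD, n = 2 clones), -57.5 ± 38.9 bp in Y287X and -139 ± 21.2 bp in G365R, and was -49 bp in the WT clone, where both tags mark the same protein. Region by region, HA was wider at 51.7% and 49.2% of the members in the R232fs clones, about evenly. It was wider at 47.2% and 20.8% in Y287X, 18.6% and 15.0% in G365R and 32.3% in WT. Over the shared regions HA was wider at 72.9% and 57.4% in R232fs, 39.6% and 19.3% in Y287X, 8.66% and 9.03% in G365R and 14.6% in WT. At the members, the median width over the 6 mutant clones averaged 845 bp under HA and 903 bp under TY1. The difference of -57.3 bp did not pass (exact permutation of tags within genotype, 2-sided, p = 0.185, of a smallest possible 0.00926). Exact swaps of tags within clones gave p = 0.188, of a smallest possible 0.0313. The list with more peaks had the larger median width at the members in 6 of 7 clones, the exception being the first Y287X clone, and the part of list length in the width was not tested.

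**Figure D5:**
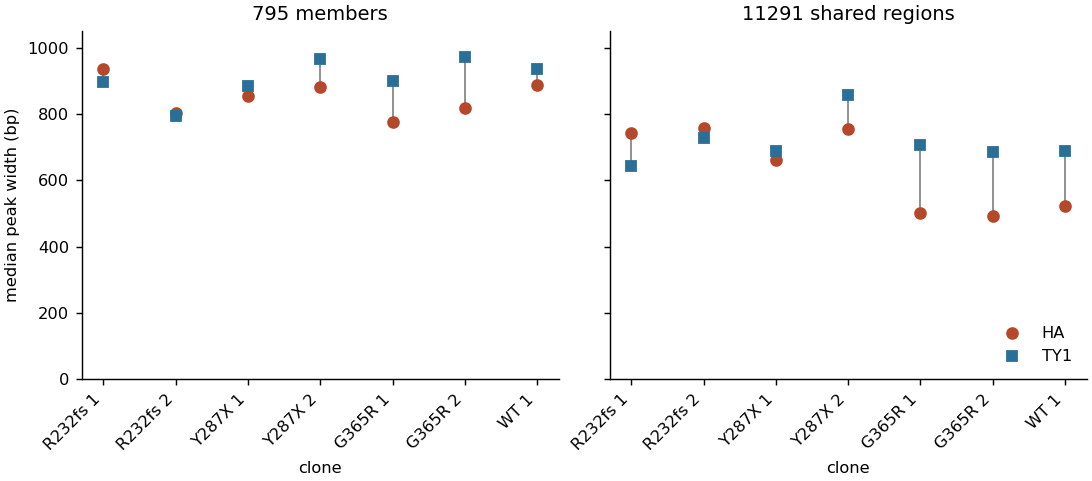
Median peak width (bp) under HA and TY1 in each of the 7 clones, for the 795 members and for the 11291 shared regions, with a line joining the tags of a clone. HA is narrower in both Y287X clones, both G365R clones and WT and wider in both R232fs clones, and the G365R gap at the members, -124 and -154 bp, is smaller than at all shared regions.

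The narrowing of G365R HA peaks that ran through the shared regions was smaller at the members. At all shared regions the median HA minus TY1 width difference was -205 and -193 bp in the G365R clones and -165 bp in WT, beside -124, -154 and -49 bp at the members. In limma on log2 width the median G365R difference was -0.20 at the members (a ratio of 0.870) and -0.43 over all shared regions (0.741). All 3 HA lists of G365R and WT were narrower than all 3 TY1 lists at 186 members (23.4%), beside 53.4% of the shared regions, and wider at 3 (0.377%, beside 0.266%). The 4 HA lists of R232fs and Y287X were narrower than their 4 TY1 lists at 13 members (1.64%, beside 0.806%) and wider at 4 (0.503%, beside 0.425%). The members are the regions with the strongest peaks, and that choice was made on the same lists, so this is a description.

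Single members with a width change were few. For G365R, limma called 2 members, both narrower under HA (0.252% of the members, beside 3.99% of the shared regions called narrower), and 46 at an unadjusted p under 0.05 (5.79%, beside 26.5%). With clone as a term it called 44, of which 43 narrower (beside 27.4% of the shared regions). The 2 calls were lost without either G365R clone and rose to 4 without any 1 of the R232fs or Y287X clones. For R232fs and Y287X together limma called 0 members and 0.00% of the shared regions, with 20 members at an unadjusted p under 0.05 (2.52%, beside 3.06%), and with clone as a term 0 and 54 (6.79%, beside 8.48%). The contrasts differed at 1 member (beside 1.16% of the shared regions), or 19 with clone as a term (18 of them with the higher HA to TY1 ratio in R232fs and Y287X, beside 15.3%). The single call was lost without any 1 of the 6 mutant clones.

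That member was chr4:40310259-40310509. Its peak was 416 and 648 bp wide under HA and 1723 and 1896 bp under TY1 in G365R. In R232fs it was 1737 and 1802 bp under HA and 2449 and 1761 bp under TY1, in Y287X 1771 and 1874 bp under HA and 1800 and 1974 bp under TY1, and in WT 1839 bp under HA and 657 bp under TY1. The G365R HA lists and the WT TY1 list were the narrow ones, so that the low lists did not follow the tag. The G365R difference was -1.80 ± 0.25 on the log2 scale (SE, limma adjusted p = 0.00715), and it differed from that of R232fs and Y287X by 1.66 ± 0.30 (limma adjusted p = 0.0370). The wide peaks covered the summits of 2 or 3 other regions, while the 3 narrow peaks covered none. Wide and narrow lists thus differed in whether neighbouring summits fell under 1 peak.

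The other G365R call, chr2:173327655-173328088, was 772 and 1087 bp wide under HA and 2082 and 2597 bp under TY1 (log2 difference -1.34 ± 0.24, limma adjusted p = 0.0178). The HA peaks covered no other region there and the TY1 peaks 2 and 3. In R232fs and Y287X the widths were 1716 to 2775 bp and overlapped between the tags, and in WT they were 1047 bp under HA and 1728 bp under TY1. At chr10:1749003-1749251 the order was the opposite, with 1087 and 1216 bp under HA and 795 and 882 bp under TY1 in G365R, a call made with clone as a term (limma adjusted p = 0.0446, beside 0.0266% of the shared regions called wider) and not without it.

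Every member had a core of bases that lay under the peak of all 14 lists, 590 bp long in the median and 322 to 1639 bp over the members. At 56 of the other shared regions the 14 peaks had no base in common. The summit had the longer arm of the peak on the same side in all 14 lists at 164 members, to the left at 72 and to the right at 92 (20.6% together), beside 11.2% of the other shared regions. The widest members were chr6:14452850-14453152, with a median width of 2785 bp and 1685 to 6066 bp over the lists, chr15:85278306-85278615 (2434 bp) and chr9:101820263-101820532 (2409.5 bp). At the chr15 region the R232fs and Y287X peaks were 2426 to 2818 bp wide and the G365R and WT peaks 992 to 2406 bp, without overlap. At the chr9 region the second R232fs and second Y287X clones had peaks of 945 to 1158 bp, and the other 10 lists of 1699 to 2927 bp. The narrowest members, chr7:41855775-41856043 and chr3:130893616-130893881, had a median width of 454 bp, and chr13:105462660-105462924 one of 470 bp.

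A few members stood on raised local background. At 19 members the background was over 3 times the list's median in all 14 lists, and 3 of them had a median fold at or above that of the members. In most R232fs and Y287X lists that median was also the list's lowest background at a member. The highest was chr6:42739077-42739335, with a median background of 35.8 over the lists and a median fold of 14.3, and next to it was chr4:51610-51880, close to the end of its chromosome, with 35.8 and 33.8. Regions that tend to collect misplaced reads were not filtered out, and whether these are such regions was not tested.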

How the data were processed

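The submitters' processing notes name build hg19 and, as tools, MACS2 2.2.7.1, Bowtie2 2.2.9 and CASAVA 1.8. The caller's settings and controls were not given in the sources used here. The authors deposited 1 narrowPeak list per library, not pooled. The authors' columns give a linear fold (ratio) over background, −log10 p, −log10 q, a score, and how far the summit is from the peak's start. Library depth is not in a peak list; summit pileup and background were solved from fold and −log10 p under a Poisson formula with a pseudocount of 1 (1 member could not be solved in 1 list).

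Regions and members followed the rule stated above. A list's fold, width and summit at a region are those of its peak of highest fold there. Log2 width and summit position at the 11291 shared regions were fitted with limma 3.58.1 (R 4.3.3; 8 groups of genotype and tag, 6 residual degrees of freedom, Benjamini-Hochberg adjustment over regions, threshold 0.05); each WT group of 1 list was taken to vary as the other groups do. Scripts were tested on simulated data. Permutation tests were exact. Other steps used Python 3.11.15, numpy 2.4.6, pandas 2.3.3, scipy 1.17.1 and matplotlib 3.10.9.

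The HA and TY1 list of a replicate number came from 1 clone, per the clone names in the file headers, so the numbers pair the samples; their deviations from group means correlated with r = 0.62, 0.45 and 0.28 for width and 0.54, 0.35 and 0.00089 for summit position (R232fs, Y287X, G365R). A fit with clone as a term has 3 residual degrees of freedom.

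The members, and the rules below, were chosen with earlier results of these data known. Named regions were the 5 highest and 3 lowest by median percentile, 3 on each side of the threshold, 3 each with the largest rank range, widest and narrowest peaks, closest and most isolated positions and smallest and largest summit spread, up to 3 per direction of each limma contrast, and the top member of each list; high-background regions, clusters and the comparison of second clones were added after their values were seen. Alternatives were windows of 50 and 250 bp, folds of 8 and 12, regions of at least 10 lists, widths in bp, the clone term, leaving out each clone, and each set of genotypes alone. The genes and sequences at these positions are not analysed here.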

Additional observations from a re-analysis of the deposited data

Results flagged for a closer look

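The HA minus TY1 width difference of R232fs and Y287X together differed from that of G365R at 1 member, by limma's test of the difference itself, and that member is chr4:40310259-40310509. Within clones, the median width at the members was larger under HA in both R232fs clones, by 9 bp or more, and smaller under HA in both Y287X clones, with a difference of -30 bp or lower, and in both G365R clones, with -124 bp or lower. Region by region HA was wider at 51.7% and 49.2% of the members in the R232fs clones, about evenly, beside 72.9% and 57.4% of the shared regions. That R232fs went one way and the other genotypes the opposite way was not tested, and the list with more peaks had the larger width in 6 of 7 clones.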

How the results depend on the processing

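The number of members was 1270 with a fold of 8, 1635 with the R232fs and Y287X lists only and 1878 with the G365R and WT lists only (these 2 chosen after seeing the data), and 803 to 950 without 1 clone. Calls of changed width in G365R, 2 as reported, were 44 with clone as a term (replicate block), 6 with a fold of 8, 1 with a fold of 12, 0 with widths in bp and 0 to 4 without 1 clone. For the difference between contrasts, 1 as reported, they were 19 with the block, 2 with a fold of 8, 0 with a fold of 12, with widths in bp or with regions of at least 10 lists, and 0 to 1 without 1 clone. Summit calls, 0 as reported, were 0 to 2 for R232fs and Y287X and 0 to 1 for the difference without 1 clone (highest without the second Y287X clone), and 1 for the difference with windows of 250 bp; the block changed none of these. The summit distance between tags was -0.925 bp with a fold of 8 (exact permutation p = 0.0469, which passes the threshold) and lay from -1.53 to -0.95 bp without 1 clone. It reversed to 0.444 bp in the G365R and WT lists only (exact permutation p = 0.25). That p is the smallest possible with so few clones, so the test could not have passed there. The HA minus TY1 median width, -57.3 bp, was -66.5 to -48.2 bp without 1 clone (exact p = 0.0833 to 0.417) and kept its side of the threshold under its 14 alternatives. Among these, the R232fs and Y287X clones only and the G365R clones only allow too few arrangements for p to fall under 0.05. Those subsets therefore could not have passed, and nothing is drawn from them. The count of members whose summits in the second R232fs and Y287X clones lay to one side was 296 with a fold of 8 and 130 to 199 under the other 3 alternatives, and the distances between those clones moved by less than the spread between list pairs; these were chosen after seeing the data. The counts of members move with the fold threshold by construction; for the other changes the cause was not tested. Deposited lists carry no depth, so regions missed at low depth cannot be told apart from unbound ones.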
